A study of Mus musculus with 12 samples.

Results

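The genes described here are 10 transcripts by which lymphocytes are commonly recognised in bulk tissue, Cd3e, Cd3d, Cd4, Cd8a, Nkg7, Ms4a1, Cd79a, Ighm, Igkc and Jchain. They were taken by gene name from the 55421 genes of the table, and each name matched 1 row. RNA-seq was done on the kidneys (renal cortex) of 12 mice, 3 in each of 4 groups. The groups were diabetic mice lacking the noncoding RNA ANRIL (KO-D), diabetic wild types (WT-D), and non-diabetic mice of the knockout (KO-C) and of the wild type (WT-C). Diabetes was induced in the KO-D and WT-D mice by intraperitoneal streptozotocin, a toxin of pancreatic beta cells, at 50 mg/kg on 5 consecutive days, with 2 months of follow-up, and the control mice received citrate buffer. All were males, and the labels give every mouse an age of 8 weeks and put 129S6/SvEvTac-Del[4C4-C5]1Lap/Mmcd as its background, wild types included. The knockout is a constitutive deletion of a noncoding interval, present in lymphocytes as in kidney cells. Streptozotocin itself was given to every diabetic mouse, so its own effect on lymphocytes and the effect of diabetes cannot be told apart.

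Cd3e and Cd3d encode chains of the CD3 complex, which carries the signal of the T cell receptor into the cell. Cd4 and Cd8a encode the coreceptors that divide most T cells into helper and cytotoxic classes. Nkg7 encodes a granule protein of natural killer cells and cytotoxic T cells. Ms4a1 encodes CD20 and Cd79a a signalling chain of the B cell receptor. Ighm and Igkc encode the constant regions of the mu heavy chain (IgM) and the kappa light chain, and Jchain encodes the peptide that joins IgM and IgA into polymers. Plasma cells, the antibody-secreting descendants of B cells, hold very large amounts of immunoglobulin mRNA and have largely lost CD20. The healthy renal cortex holds few lymphocytes, and most of its RNA comes from tubules.

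The members differed widely in abundance. As CPM (reads per 1000000 counted reads, scaled by TMM factors) per kilobase of exon, averaged over the 12 mice, Igkc stood at 150, Jchain at 9.31 and Ighm at 4.31. The other members lay far lower, with Nkg7 at 0.465, Cd79a at 0.227, Cd3d at 0.218, Cd8a at 0.109, Cd4 at 0.0947, Cd3e at 0.0635 and Ms4a1 at 0.0195 CPM per kilobase. Over the 12 libraries together these levels came from 36175 reads of Igkc, 10804 of Jchain, 4780 of Ighm and 59 to 200 of each of the other members. The T cell and B cell markers were thus read from 0 to 65 reads in a library. Counted reads per library, in units of 1000000, were 23.8 to 28.9 in KO-D and 32.6 to 67.3 in WT-D, with 34.2 to 37.1 among KO-C and 35.4 to 40.9 among WT-C. At this depth the Nkg7 value of KO-D replicate 1, 15 reads or 0.519 CPM as deposited, had a 95% Wilson interval of 0.315 to 0.857 CPM, and that of KO-C replicate 3, 2 reads or 0.0540 CPM, one of 0.0148 to 0.197 CPM. A count of 0 reads for Cd3e in KO-C replicate 2 allows up to 3 reads, or 0.0876 CPM, with a 95% Wilson upper limit of 0.112 CPM. These intervals and floors cover counting error only.

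Several libraries stood apart. WT-D replicate 1 held the fat cell transcripts Adipoq at 24.8 CPM and Plin1 at 13.1 CPM and the adrenal enzymes Cyp11b1 at 4.72 CPM and Cyp11a1 at 6.12 CPM, against at most 1.74 CPM of any of these in the other 11 libraries. WT-C replicate 3 held the most haemoglobin mRNA, with 1987 CPM of Hbb-bs against 144 to 652 CPM in the others. Transcripts of lymph node vessels were near 0, with Madcam1 at 0 to 0.0985 CPM and Glycam1 at 0 to 0.0340 CPM over the 12 libraries. No reads assigned to ANRIL were used here, so the genotype labels were not checked. In bulk RNA fewer cells of a type and less of its RNA per cell cannot be told apart.

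Promoter sequences were found for 6 of the 10 members in the RefSeq set (GRCm38.p6). Those of Cd3e, Cd3d, Nkg7 and Cd79a are shown because they hold the motif marked in capitals, and that of Cd8a as a T cell gene without it. Cd3e and Cd3d are neighbours on chromosome 9. The bases in capitals are AGGAAG, a core that Ets-family factors bind, or its complement CTTCCT. The Cd3e sequence is chr9:45009628-45009861 on the minus strand (234 bases) and the Cd3d sequence is chr9:44981536-44981785 on the plus strand (250 bases), both upstream of the gene's span. The Cd8a sequence, chr6:71373177-71373426 on the plus strand (250 bases), is also upstream of the span. The Nkg7 stretch is chr7:43437092-43437121 on the plus strand, and the Cd79a stretch is chr7:24897430-24897459 on the plus strand. Both 30-base stretches lie inside the span the table gives the gene.
Cd3e: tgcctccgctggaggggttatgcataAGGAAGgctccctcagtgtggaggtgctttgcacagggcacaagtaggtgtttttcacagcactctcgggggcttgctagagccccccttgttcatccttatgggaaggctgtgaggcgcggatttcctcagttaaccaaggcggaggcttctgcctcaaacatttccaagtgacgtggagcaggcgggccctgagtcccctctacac
Cd3d: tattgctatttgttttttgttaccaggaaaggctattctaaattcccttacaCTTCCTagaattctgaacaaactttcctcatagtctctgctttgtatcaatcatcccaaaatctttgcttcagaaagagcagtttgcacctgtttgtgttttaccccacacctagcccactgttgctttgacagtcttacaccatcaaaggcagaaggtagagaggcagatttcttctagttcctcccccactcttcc
Cd8a: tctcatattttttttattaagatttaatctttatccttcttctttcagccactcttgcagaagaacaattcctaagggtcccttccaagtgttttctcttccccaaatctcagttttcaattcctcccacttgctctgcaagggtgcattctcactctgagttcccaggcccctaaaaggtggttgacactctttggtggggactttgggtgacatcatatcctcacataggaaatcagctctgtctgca
Nkg7: gccaaaccactcAGGAAGggagggggtagg
Cd79a: gcacggctgaacAGGAAGtgaggcggagtt

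In the 250 bases before the RefSeq start site, AGGAAG on either strand was found in 4 of the 6 member promoters (Cd3e with 2 matches, Cd3d, Nkg7 and Cd79a) and in 29.5% of all 32851 promoters of that length. Cd8a and Jchain held no match. The E-box CAGGTG was found in Cd3d and Cd79a and in 17.2% of all promoters, and the Runx motif TGTGGT in Nkg7 and in 14.0% of all. The E-box CAGCTG (13% of all promoters) and the octamer ATTTGCAT (1.60%) were in none of the 6. Each motif was searched on both strands, and no motif holds another within its letters. These matches describe letters in a window and not bound sites.

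The question for the CD3 chains was whether diabetes raised T cell transcripts in the cortex and whether the knockout altered this. Over both genotypes Cd3e and Cd3d were higher in diabetic than in control mice, by 1.29 ± 0.33 and 1.11 ± 0.26 on the log2(CPM + 0.1) scale (log2 change ± SE, n = 6 mice a side). Cd3e (ENSMUSG00000032093, chr9:44998740-45009627) had 0.505, 0.591 and 0.327 CPM in KO-D replicates 1 to 3 (16, 18 and 11 reads) and 0.371, 0.275 and 0.309 CPM in WT-D (30, 12 and 9 reads). The control values were 0.147, 0 and 0.116 CPM in KO-C (5, 0 and 4 reads) and 0.0997, 0.0280 and 0.340 CPM in WT-C (3, 1 and 10 reads). WT-C replicate 3 was the only control inside the diabetic range. Cd3d (ENSMUSG00000032094, chr9:44981786-44987339) had 0.411, 0.821 and 0.684 CPM in KO-D (13, 25 and 23 reads) and 0.544, 0.344 and 0.653 CPM in WT-D (44, 15 and 19 reads). It had 0.147, 0.190 and 0.174 CPM in KO-C (5, 6 and 6 reads) and 0.365, 0.112 and 0.306 CPM in WT-C (11, 4 and 9 reads). The KO-D and KO-C mice did not overlap (22.6% of all genes tested were higher in that way), while WT-C replicate 1 stood above WT-D replicate 2. Between KO-D and KO-C the log2 change was 1.69 ± 0.46 for Cd3e (limma, Benjamini-Hochberg adjusted p = 0.0143) and 1.41 ± 0.36 for Cd3d (adjusted p = 0.0105). Between WT-D and WT-C it was 0.90 ± 0.46 for Cd3e (limma adjusted p = 0.174) and 0.81 ± 0.36 for Cd3d (adjusted p = 0.122), and neither passed the test. Without WT-C replicate 3 the WT-D against WT-C change of Cd3e was 1.40 (limma adjusted p = 0.0491). The KO-D against KO-C call of Cd3e was lost without KO-C replicate 2 or KO-D replicate 2 (1.32 to 1.96 over the 12 omissions of 1 library, limma adjusted p of up to 0.0671).

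The coreceptors followed the CD3 chains over both genotypes. Cd4 (ENSMUSG00000023274, chr6:124864692-124888221) had 0.221, 0.821 and 0.506 CPM in KO-D (7, 25 and 17 reads) and 0.804, 0.573 and 0.585 CPM in WT-D (65, 25 and 17 reads). The controls had 0.176, 0.0634 and 0.174 CPM in KO-C (6, 2 and 6 reads) and 0.199, 0.224 and 0.238 CPM in WT-C (6, 8 and 7 reads). KO-D replicate 1 alone lay among the controls. Cd4 rose in diabetic mice by 1.25 ± 0.27 over both genotypes (limma adjusted p = 0.00238), by 1.29 ± 0.38 in KO-D against KO-C (adjusted p = 0.0211) and by 1.22 ± 0.38 in WT-D against WT-C (adjusted p = 0.0362). The WT-D against WT-C call was lost when any 1 of 6 libraries was left out (WT-C replicates 1, 2 and 3, WT-D replicates 1 and 2, or KO-D replicate 3), with changes of 1.08 to 1.30 over the 12 omissions and limma adjusted p of up to 0.144. The KO-D against KO-C call was lost without KO-C replicate 2, KO-D replicate 2 or KO-D replicate 3 (0.92 to 1.68, limma adjusted p of up to 0.0970).

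Cd8a (ENSMUSG00000053977, chr6:71373427-71379173) had 0.505, 0.493 and 0.684 CPM in KO-D (16, 15 and 23 reads) and 0.482, 0.413 and 0.585 CPM in WT-D (39, 18 and 17 reads). It had 0.293, 0.159 and 0.203 CPM in KO-C (10, 5 and 7 reads) and 0.532, 0.168 and 0.238 CPM in WT-C (16, 6 and 7 reads). The 6 diabetic mice were within a narrow range, and WT-C replicate 1 fell inside it. The change was 0.84 ± 0.24 over both genotypes (limma adjusted p = 0.0138) and 1.06 ± 0.34 in KO-D against KO-C (adjusted p = 0.0317). In WT-D against WT-C it was 0.61 ± 0.34 (limma adjusted p = 0.211). The KO-D against KO-C call was lost without KO-C replicate 2 or 3 or any KO-D replicate (0.93 to 1.26, adjusted p of up to 0.119), and the call over both genotypes was lost when both WT-D replicate 1 and WT-C replicate 3 were left out (0.79, limma adjusted p = 0.0571).

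**Figure D1:**
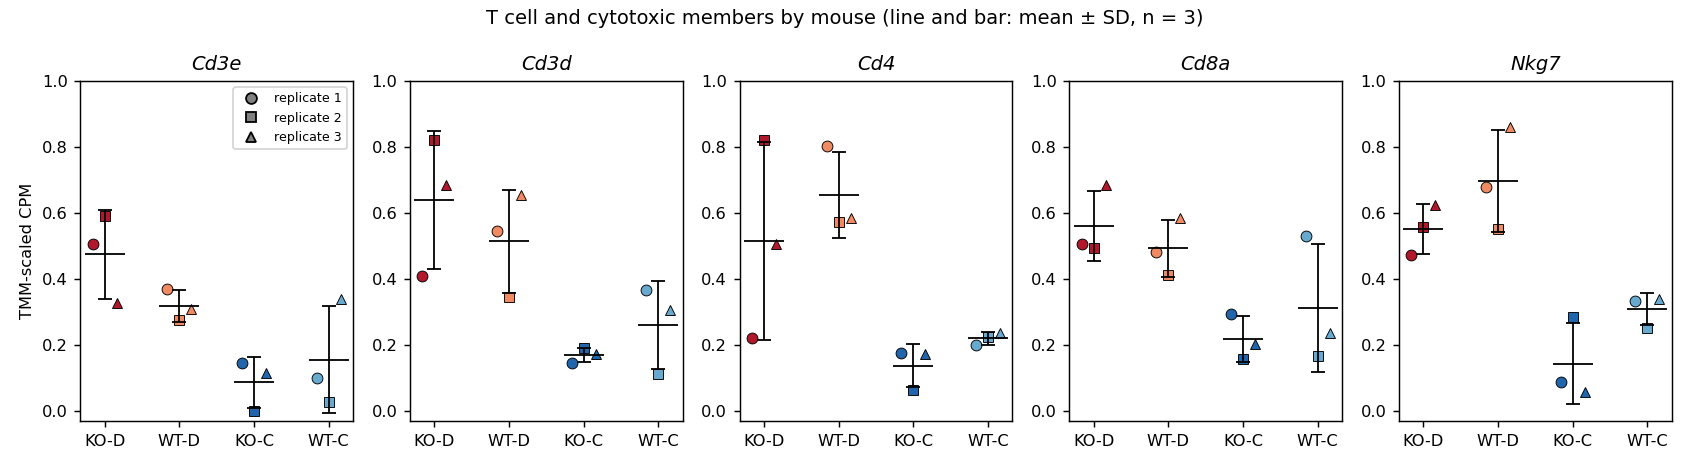
TMM-scaled CPM of Cd3e, Cd3d, Cd4, Cd8a and Nkg7 (y axis, linear) in each mouse by group (x axis), with the line and bar at the mean ± SD of 3 mice and the symbol giving the replicate number. For Nkg7 the 6 diabetic mice lie at 0.474 to 0.860 CPM, all above the 6 control mice at 0.0579 to 0.340 CPM, and each of the other genes has at least 1 overlap between diabetic and control mice.

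Nkg7 (ENSMUSG00000004612, chr7:43437073-43438249) was the member with complete separation by diabetes. It had 0.474, 0.558 and 0.625 CPM in KO-D (15, 17 and 21 reads) and 0.680, 0.550 and 0.860 CPM in WT-D (55, 24 and 25 reads). It had 0.0880, 0.286 and 0.0579 CPM in KO-C (3, 9 and 2 reads) and 0.332, 0.252 and 0.340 CPM in WT-C (10, 9 and 10 reads). All 6 diabetic mice were above all 6 control mice, which was so for 9.04% of all genes tested. Nkg7 rose by 1.24 ± 0.24 over both genotypes (limma adjusted p = 0.00137) and by 1.53 ± 0.35 in KO-D against KO-C (adjusted p = 0.00499). In WT-D against WT-C the groups did not overlap either (20.9% of all genes tested were higher in that way), and the change of 0.95 ± 0.35 had a limma adjusted p of 0.0634, or of 0.0340 once KO-C replicate 2 was left out of the fit. The KO-D against KO-C calls of Nkg7 and Cd3d were kept in 12 of 12 omissions of 1 library. Both genes passed the filter on low reads (0.284 CPM as deposited) only through diabetic mice. Their calls and the separation of groups are not independent of this filter.

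Ms4a1 (ENSMUSG00000024673, chr19:11249675-11266241) was too sparse for the fit and was the only member left out by the filter on low reads. It had 0.0632, 0.0985 and 0.0892 CPM in KO-D (2, 3 and 3 reads) and 0.272, 0.0459 and 0.378 CPM in WT-D (22, 2 and 11 reads). It had 0.0587, 0.159 and 0 CPM in KO-C (2, 5 and 0 reads) and 0.0664, 0.112 and 0.102 CPM in WT-C (2, 4 and 3 reads). WT-D replicates 1 and 3 were above all other mice, and the remaining 10 overlapped. The mean of the diabetic mice was 0.0749 CPM above that of the controls, with an exact two-sided permutation p of 0.235 (400 arrangements within genotype, smallest possible 0.005), so no difference was detectable at this depth.

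Cd79a (ENSMUSG00000003379, chr7:24897381-24902197) showed the same 2 mice on top. It had 0.190, 0.197 and 0.416 CPM in KO-D (6, 6 and 14 reads) and 0.705, 0.0917 and 0.688 CPM in WT-D (57, 4 and 20 reads). It had 0.264, 0.254 and 0.290 CPM in KO-C (9, 8 and 10 reads) and 0.266, 0.168 and 0.442 CPM in WT-C (8, 6 and 13 reads). WT-D held both the highest values and the lowest one. The change over both genotypes was 0.17 ± 0.35 (95% interval -0.59 to 0.93, limma adjusted p = 0.725), and it was -0.06 ± 0.50 in KO-D against KO-C and 0.40 ± 0.50 in WT-D against WT-C. The last was 0.05 without WT-D replicate 1 (limma adjusted p = 0.966) and 0.67 without WT-C replicate 3 (adjusted p = 0.424), and it reached 1.08 over the 12 omissions of 1 library.

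Ighm (ENSMUSG00000076617, chr12:113418558-113422730, annotated as an immunoglobulin constant gene) was higher in diabetic mice over both genotypes, with the highest values in WT-D. It had 4.36, 7.42 and 6.07 CPM in KO-D (138, 226 and 204 reads) and 33.9, 4.68 and 17.9 CPM in WT-D (2740, 204 and 521 reads). It had 3.58, 3.52 and 3.80 CPM in KO-C (122, 111 and 131 reads) and 5.08, 2.30 and 5.03 CPM in WT-C (153, 82 and 148 reads). WT-D replicates 1 and 3 were above all other mice, and WT-D replicate 2 and KO-D replicate 1 lay within the control range. The KO-D mice were all above the KO-C mice by a small margin (22.6% of all genes tested were higher in that way). Ighm rose by 1.25 ± 0.38 over both genotypes (limma adjusted p = 0.0163) and by 1.84 ± 0.53 in WT-D against WT-C (adjusted p = 0.0267). The change of 0.66 ± 0.53 in KO-D against KO-C had a limma adjusted p of 0.367, and with these 2 groups alone in the fit it was 0.70 and passed (adjusted p = 0.0354). Over both genotypes the change of Ighm was 0.94 (limma adjusted p = 0.0363) once WT-D replicate 1 was left out, and 1.03 without WT-D replicate 1 and WT-C replicate 3 together (adjusted p = 0.0370). The WT-D against WT-C call was lost without WT-D replicate 1 (1.22, limma adjusted p = 0.134), and also without WT-D replicate 3 or WT-C replicate 2. It was lost as well with only WT-D and WT-C in the fit, and when no filter on low reads was used.

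Igkc and Jchain varied widely among mice of the same group, and neither passed the test in any comparison. Igkc (ENSMUSG00000076609, chr6:70726435-70726966, also an immunoglobulin constant gene) had 103, 55.3 and 71.3 CPM in KO-D (3263, 1684 and 2396 reads) and 111, 48.5 and 81.6 CPM in WT-D (9009, 2113 and 2372 reads). It had 32, 36.8 and 107 CPM in KO-C (1090, 1160 and 3707 reads) and 51.0, 36.7 and 222 CPM in WT-C (1536, 1310 and 6535 reads). The highest value was in a control, WT-C replicate 3, and KO-C replicate 3 was close to the highest diabetic mice. The change over both genotypes was 0.29 ± 0.42 (95% interval -0.61 to 1.19, limma adjusted p = 0.594), and 0.71 without WT-C replicate 3 (adjusted p = 0.0865).

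Jchain (ENSMUSG00000067149, chr5:88519809-88527891) ran in parallel with Igkc. It had 29.8, 10.5 and 19.7 CPM in KO-D (942, 321 and 663 reads) and 37.2, 11.9 and 20.8 CPM in WT-D (3010, 520 and 605 reads). It had 10.2, 10.8 and 29.2 CPM in KO-C (348, 340 and 1007 reads) and 21.1, 10.1 and 69.8 CPM in WT-C (634, 360 and 2054 reads). WT-C replicate 3 was again the highest and WT-D replicate 1 the second. The change over both genotypes was 0.04 ± 0.45 (95% interval -0.92 to 1.01, limma adjusted p = 0.95), with 0.44 once WT-C replicate 3 was left out (limma adjusted p = 0.361) and -0.17 once WT-D replicate 1 was (adjusted p = 0.809).

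**Figure D2:**
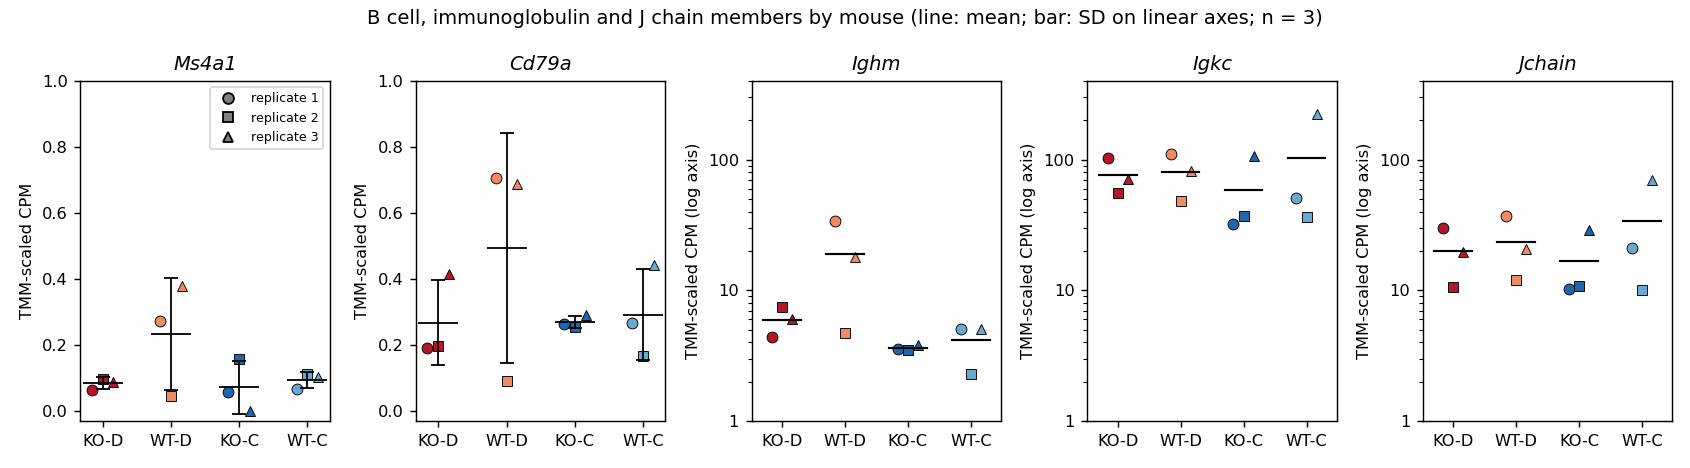
TMM-scaled CPM of Ms4a1 and Cd79a (linear y axes) and of Ighm, Igkc and Jchain (log y axes) in each mouse by group (x axis), with lines at the mean of 3 mice, SD bars on the linear axes only and the symbol giving the replicate number. WT-D replicates 1 and 3 are the highest for Ms4a1, Cd79a and Ighm (33.9 and 17.9 CPM), while WT-C replicate 3 is the highest for Igkc (222 CPM) and Jchain (69.8 CPM).

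Counted over the 9 members tested, diabetes against control over both genotypes called 6 (Cd3e, Cd3d, Cd4, Cd8a, Nkg7 and Ighm), all higher, where 43.5% of all 18461 genes tested were called and 21.9% were called higher (limma, adjusted p under 0.05). At the study's threshold of 0.01 it called 4 of 9, with 28.2% of all genes called. KO-D against KO-C called 5 of 9, the 4 T cell genes and Nkg7, against 31.1% of all genes called and 13.6% called higher. WT-D against WT-C called 2 of 9, Cd4 and Ighm, which is 22.2% of the members against 22% of all genes called and 13.7% called higher. All calls were toward higher levels in diabetic mice. The filter on low reads asks for 0.284 CPM as deposited in at least 3 libraries, the size of a group. In controls the highest such values were 0.283 for Cd3e, 0.269 for Cd3d, 0.206 for Cd4 and 0.283 for Nkg7. These genes thus entered the test only through diabetic mice, where they are high. Among controls Cd8a reached 0.284 CPM only in WT-C replicate 1 (0.392 CPM) and KO-C replicate 1 (0.286 CPM). It too needed the diabetic mice to pass. The count of calls toward higher levels is not independent of this filter. The median log2 change of the 9 members was 1.11 over both genotypes, 1.06 in KO-D against KO-C and 0.81 in WT-D against WT-C, beside 0.01, 0.02 and 0.05 for all genes tested. Without scaling beyond CPM the median of all genes over both genotypes was 0.36, that of the members 1.39, and the same 6 members were called, while 85.8% of all calls were toward higher levels in place of 50.4% with TMM scaling. The split was 76.1% in place of 43.8% in KO-D against KO-C, 94% in place of 62.6% in WT-D against WT-C, and 86.1% in place of 48.3% in KO-D against WT-C.

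**Figure D3:**
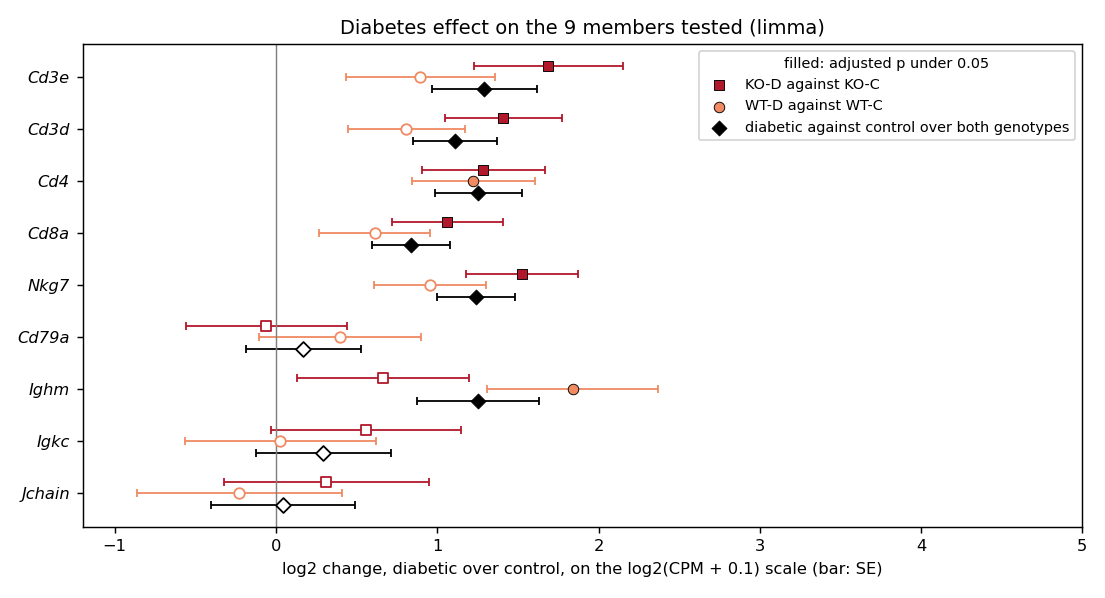
Log2 change (x axis, log2(CPM + 0.1) scale, bar ± SE) of the 9 members tested (y axis) for KO-D against KO-C, WT-D against WT-C and diabetic against control over both genotypes, with filled symbols for limma adjusted p under 0.05. The T cell genes and Nkg7 lie at 0.84 to 1.29 over both genotypes, Ighm at 1.25, and Cd79a, Igkc and Jchain at 0.04 to 0.29.

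The study also set KO-D against WT-C, which shares its controls with WT-D against WT-C. Here 2 of 9 members were called, against 40.1% of all genes called and 19.4% called higher. Cd3e was higher by 1.33 ± 0.46 (limma adjusted p = 0.0355) and Cd3d by 1.07 ± 0.36 (adjusted p = 0.0327). Cd4 (0.82, limma adjusted p = 0.102), Cd8a (0.77, adjusted p = 0.0911) and Nkg7 (0.68, adjusted p = 0.132) did not pass, and neither did Ighm (0.57, adjusted p = 0.412). The Cd3e call was lost without WT-C replicate 1 or 2 or KO-D replicate 1 or 2 (0.95 to 1.86, limma adjusted p of up to 0.140), and the Cd3d call without WT-C replicate 2 or KO-D replicate 2 or 3 (0.76 to 1.31, adjusted p of up to 0.120).

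Knockout and wild type were compared directly within diabetic mice, within controls, and by how far the effect of diabetes differed between them. In KO-D against WT-D limma called 0 of 9 members, against 5.53% of all genes (smallest adjusted p 0.215). It picked 1 member before adjustment, at p under 0.05, against 18.1% of all genes. DESeq2 called 1 member, with 1591 calls over all genes, and the quasi-likelihood test of edgeR called 0 members. The member picked by limma before adjustment and by DESeq2 was Ighm. It had 5.95 ± 1.53 CPM in KO-D and 18.8 ± 14.6 CPM in WT-D (SD, n = 3 each). Its log2 change was -1.27 ± 0.53 (95% interval -2.42 to -0.13), and it moved with single mice of WT-D. It was -0.65 once WT-D replicate 1 was left out (limma adjusted p = 0.549) and -2.07 once WT-D replicate 2 was (adjusted p = 0.00432), the ends of its range over the 12 omissions of 1 library. For the T cell genes and Nkg7 the KO-D against WT-D changes were 0.43 ± 0.46 for Cd3e, 0.26 ± 0.36 for Cd3d, -0.41 ± 0.38 for Cd4, 0.15 ± 0.34 for Cd8a and -0.28 ± 0.35 for Nkg7. Their intervals reached from -1.23 at the lowest, for Cd4, to 1.43 at the highest, for Cd3e.

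With all 12 mice the diabetes effect did not differ detectably between genotypes for any member (0 of 9 by limma, smallest adjusted p 0.517). The unadjusted p was under 0.05 for 0 of the 9, against 14.6% of all genes, and limma called 0% of all genes. Neither DESeq2, with 708 calls over all genes, nor edgeR's quasi-likelihood test called a member. The largest estimate in absolute size was that of Ighm, whose increase was lower by 1.18 ± 0.75 in knockout mice (95% interval -2.80 to 0.44). This difference was -0.56 once WT-D replicate 1 was left out (limma adjusted p = 0.801) and -1.97 once WT-D replicate 2 was, where it passed (adjusted p = 0.0446). That of Cd3e was higher by 0.79 ± 0.65 (-0.62 to 2.20). The passing of the threshold by Cd3e, Cd3d, Cd8a and Nkg7 in KO-D against KO-C and not in WT-D against WT-C is therefore not shown to be a difference between the genotypes. In KO-C against WT-C limma called 0 of 9 members and 0% of all genes (smallest adjusted p 0.586). Only Nkg7 had an unadjusted p under 0.05 there, against 8.37% of all genes. DESeq2, with 13 calls over all genes, and edgeR's quasi-likelihood test called 0 members. For knockout against wild type over both conditions limma also called 0 of 9 and 0% of all genes (smallest adjusted p 0.303). Nkg7 was again the only member at an unadjusted p under 0.05, against 14.9% of all genes. Here 0 members were called by DESeq2, with 592 calls over all genes, and by edgeR's quasi-likelihood test.

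Other T cell genes followed the members. Of 24 further T cell genes 17 had enough reads, and 13 of these were called higher and 0 lower in diabetic mice over both genotypes, with a median log2 change of 1.22, where 43.5% of all genes were called and 21.9% called higher. Il7r, the interleukin 7 receptor chain of naive and memory T cells, had 1.33, 0.493 and 0.625 CPM in KO-D and 0.792, 0.482 and 0.688 CPM in WT-D, against 0.0952 to 0.176 CPM in KO-C and 0.0561 to 0.204 CPM in WT-C. The 6 diabetic mice were all above the 6 controls, and Il7r rose by 1.86 ± 0.27 (limma adjusted p = 0.000172). Cd3g, the third CD3 chain and the neighbour of Cd3d on chromosome 9, rose by 1.52 ± 0.28 (limma adjusted p = 0.000951), and the costimulatory receptor Cd28 by 1.25 ± 0.25. Il7r, Cd3g and Cd28 had at most 6, 9 and 4 reads in a control, so they too passed the filter on low reads only through diabetic mice. For the other genes of this list that was not counted. Trac, the constant region of the T cell receptor alpha chain, did not follow, with 2.16 to 4.81 CPM in the 12 mice and a change of -0.03 ± 0.20. Variable segments of the T cell receptor alpha and beta chains together held 15, 26 and 27 reads in KO-D and 63, 16 and 28 in WT-D, against 16, 4 and 1 in KO-C and 6, 5 and 13 in WT-C. As CPM these were 0.474, 0.854 and 0.803 in KO-D and 0.779, 0.367 and 0.963 in WT-D. The controls had 0.469, 0.127 and 0.0290 CPM in KO-C and 0.199, 0.140 and 0.442 CPM in WT-C. KO-C replicate 1 and WT-C replicate 3 were thus above WT-D replicate 2.

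Among 9 tested genes of natural killer and cytotoxic cells beside Nkg7, 4 were called higher and 0 lower over both genotypes (median 0.88), beside the 21.9% of all genes called higher. Ccl5, a chemokine released by activated T and natural killer cells, had 1.83, 1.97 and 2.38 CPM in KO-D and 2.31, 1.70 and 2.03 CPM in WT-D, against 0.261 to 0.666 CPM in KO-C and 0.168 to 0.883 CPM in WT-C. It rose by 2.07 ± 0.29 (limma adjusted p = 0.000144), with no overlap between diabetic and control mice. Il2rb, a chain of the interleukin 2 and 15 receptors, rose by 1.84 ± 0.31, and the natural killer receptors Klrk1 and Klrd1 rose by 1.23 ± 0.30 and 0.93 ± 0.31. The call of Klrd1 was lost without WT-D replicate 1 (0.90, limma adjusted p = 0.0528). Il2rb, Klrk1 and Klrd1 reached the filter's 0.284 CPM as deposited in too few controls to pass without diabetic mice. The effector genes Gzma (0.61), Gzmb (0.82) and Prf1 (0.35) did not pass the test.

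Of 16 further B cell genes 7 had enough reads and 4 were called higher, against 21.9% of all genes. These were Cd72 (2.00 ± 0.22, limma adjusted p = 2.48e-05), Bank1 (1.30 ± 0.32), Blnk (0.64 ± 0.16) and Spib (1.10 ± 0.29). Cd72 and Blnk had 0.637 to 6.11 and 8.42 to 24.6 CPM, far above Ms4a1. Bank1 and Spib reached the filter's 0.284 CPM as deposited in too few controls to pass without diabetic mice. Blnk is known also from macrophages and Spib from plasmacytoid dendritic cells. Cd79b, the partner chain of Cd79a, had -0.28 and Ighd, the delta constant gene of naive B cells, -0.19, and neither passed.

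The heavy chain classes behaved differently from each other. Among 10 tested genes of plasma cells and immunoglobulin constant regions 4 were called higher, Ighg1 (2.01 ± 0.40), Ighg2c (1.94 ± 0.30), Ighg2b (1.55 ± 0.36) and Irf4 (1.37 ± 0.28), a transcription factor that plasma cells need, and 0 lower, against 21.9% of all genes called higher. Without WT-C replicate 3, 8 of 12 genes tested were called higher, and without WT-D replicate 1, 4 of 11. Ighg2c and Irf4 reached the filter's 0.284 CPM as deposited in too few controls to pass without diabetic mice. Ighg1 stood at 13.5 CPM in WT-D replicate 1 and at 2.06 to 2.72 CPM in the other 5 diabetic mice, and without that library its change was 1.57 (limma adjusted p = 0.000432). The IgG constant genes summed to 4.83, 4.20 and 5.38 CPM in KO-D and 18.2, 3.49 and 7.32 CPM in WT-D, against 1.53, 1.87 and 1.19 CPM in KO-C and 1.59, 0.813 and 2.24 CPM in WT-C. All 6 diabetic mice were above all 6 controls. Igha, the constant region of IgA, had 48.5, 30.3 and 31.3 CPM in KO-D and 115, 35.3 and 70.5 CPM in WT-D, against 33.4, 29.8 and 109 CPM in KO-C and 34.1, 35.6 and 193 CPM in WT-C, with a change of -0.16 ± 0.45 (limma adjusted p = 0.800). Igha thus peaked in WT-C replicate 3 as Igkc and Jchain did, and not in the diabetic mice as the IgG genes did. The IgG genes resemble each other closely, and the mm10 reference carries Ighg2c where some strains carry Ighg2a, so the split of reads among them is uncertain. Whether reads of 129S6 mice were lost at immunoglobulin genes was not tested.

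**Figure D4:**
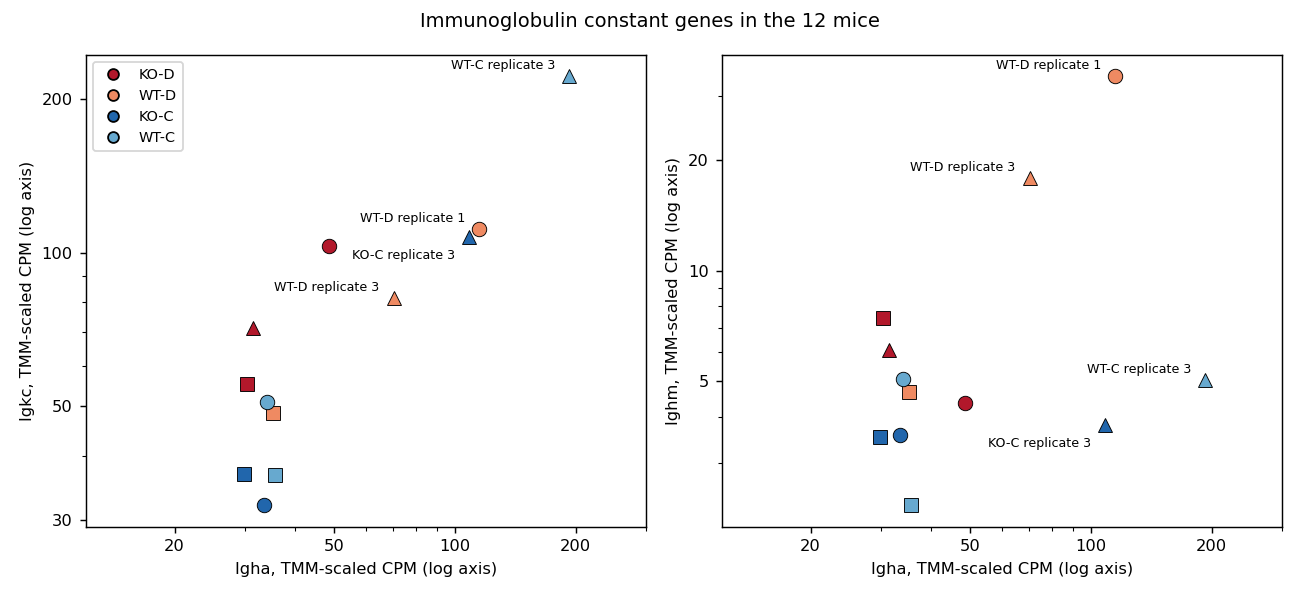
Igkc (left, y axis) and Ighm (right, y axis) against Igha (x axes) in TMM-scaled CPM on log axes, 1 point for each of the 12 mice, coloured by group. WT-C replicate 3 and KO-C replicate 3 are high for Igha (193 and 109 CPM) and Igkc (222 and 107 CPM) and have 5.03 and 3.80 CPM of Ighm, whereas WT-D replicates 1 and 3 have the highest Ighm (33.9 and 17.9 CPM).

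Per kilobase of exon, Igha exceeded Ighm in every mouse. The ratio was 7.86, 2.89 and 3.65 in KO-D and 2.40, 5.33 and 2.78 in WT-D, against 6.60, 5.99 and 20.2 in KO-C and 4.74, 10.9 and 27.1 in WT-C. The diabetic and control ranges overlapped, and the highest ratios were in WT-C replicate 3 and KO-C replicate 3. Variable segments of the kappa chain held 536 to 1617 reads in KO-D and 639 to 5243 in WT-D, against 332 to 968 for KO-C and 289 to 2227 for WT-C, spread over 58 to 82 segments a mouse. The most used segment took 5.51% of them at the lowest (95% Wilson interval 3.59% to 8.36%), in WT-C replicate 2, and 12.4% at the highest (10.03% to 15.1%), in WT-D replicate 2. Reads may be shared among near-identical segments. No mouse's kappa reads came mainly from a single segment. For each read of Igkc there were 0.496, 0.318 and 0.411 kappa variable reads in KO-D and 0.582, 0.302 and 0.435 in WT-D, against 0.417, 0.286 and 0.261 in KO-C and 0.188, 0.277 and 0.341 in WT-C.

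Genes of other cell types moved with diabetes as well, and their part in the members' changes was not tested. Of all genes tested over both genotypes, 43.5% were called and 21.9% were called higher. Of 12 macrophage genes 10 were called higher over both genotypes (median 1.53), and their summed level was 92.6 to 208 CPM in KO-D, 142 to 276 CPM in WT-D, 87.1 to 106 CPM in KO-C and 86.1 to 111 CPM in WT-C. Of 10 genes shared by leukocytes 9 were higher (Ptprc, which encodes CD45, by 1.97) and Ptpn6, a phosphatase that epithelium also makes, was lower by 0.30. Of 9 tested dendritic cell genes 4 were higher, among them Clec9a (1.89) and Xcr1 (1.42), and of 3 tested neutrophil genes 2 were higher. Of 12 genes of other kidney cells 9 were higher (median 1.08), while 9 of 10 proximal tubule genes were lower (median -1.15), with summed levels of 18531 to 24430 CPM in KO-D, 18600 to 39087 CPM in WT-D, 50998 to 58524 CPM in KO-C and 56054 to 81882 CPM in WT-C. The median of the 4 T cell members was 1.18 on the same scale. Limma called 0 of 5 red cell genes (median -0.50, 2 at an unadjusted p under 0.05), 0 of 5 genes of fat and lymph node stroma (median 0.64, or -0.34 without WT-D replicate 1, 1 at an unadjusted p under 0.05) and 1 of 2 adrenal genes, as higher.

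Of 11 tested chemokines and receptors that draw lymphocytes, 7 were called higher over both genotypes and 0 lower, beside the 21.9% of all genes called higher. Cxcl9 and Cxcl10, interferon-induced ligands of the receptor Cxcr3, rose by 3.22 and 3.21, Cxcr3 itself by 1.51 and Cxcr6 by 1.80. In a control Cxcl9, Cxcr3 and Cxcr6 had at most 8, 5 and 8 reads. They thus passed the filter on low reads only through diabetic mice. Cxcl10 had 6.83 to 10.5 CPM in KO-D and 6.72 to 13.3 CPM in WT-D, against 0.469 to 1.33 CPM in KO-C and 0.713 to 1.12 CPM in WT-C. The B cell attractant Cxcl13 had at most 0.618 CPM, in WT-D replicate 1. Ccl21a, a ligand of the T cell homing receptor Ccr7 with near-identical copies among which reads may be split, was lower by 2.26 in KO-D against WT-D (limma adjusted p = 0.0130). That call was lost without WT-D replicate 1 (-2.31, adjusted p = 0.0536). In controls Ccl21a had 36, 44 and 35 reads in KO-C and 114, 48 and 28 in WT-C. Ccl19, of the same list, had 44, 31 and 29 reads in KO-D and 133, 187 and 122 in WT-D. It had 14, 15 and 15 reads in KO-C and 114, 48 and 51 in WT-C, so its knockout counts were lower with and without diabetes. These reads are not scaled for library size. KO-D libraries held 23.8 to 28.9 and WT-D libraries 32.6 to 67.3 times 1000000 counted reads. Limma called 0 of the 11 tested genes in KO-C against WT-C.

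**Figure D5:**
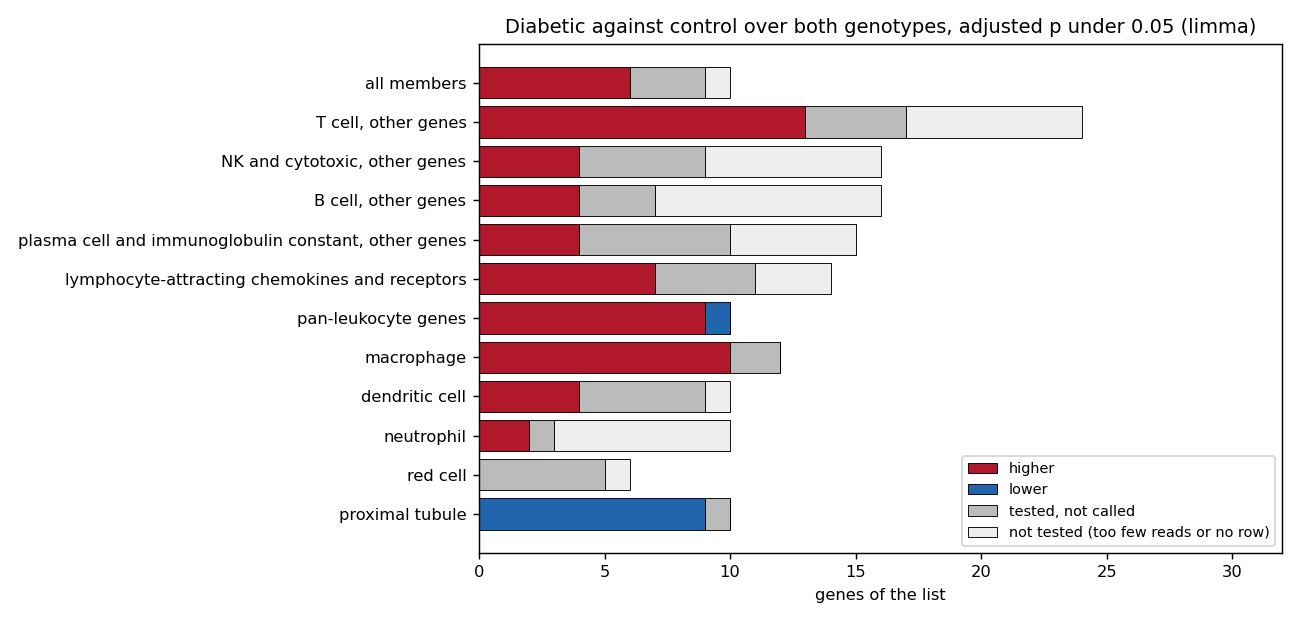
Number of genes (x axis) called higher, called lower, tested but not called, and not tested in each list (y axis) for diabetic against control over both genotypes (limma, adjusted p under 0.05). The T cell list has 13 called higher of 17 tested and the proximal tubule list 9 called lower of 10 tested. Of all genes tested, 43.5% were called and 21.9% were called higher.

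The genes whose pattern over the 12 mice was most like that of each member were ranked by Pearson r of log2 levels among 12459 genes with a mean of at least 1 CPM and enough reads, as a description in which the 4 groups and the library of each mouse are shared by all genes. The cut at 1 CPM removed Cd3e, Cd3d, Cd4, Cd8a, Nkg7, Ms4a1 and Cd79a from the genes that could be named, and other sparse lymphocyte genes such as Il7r. The absence of such genes among the matches was thus fixed beforehand. Igkc was closest to Jchain (r = 0.95) and then to Igha (0.88) and the kappa variable segment Igkv10-96 (0.87), and Jchain to Igkc (0.95), Igha (0.88) and Igkv8-30 (0.80). Ighm was closest to Coro1a (0.98), an actin-binding protein of leukocytes, and to the complement genes C1qc (0.95) and C1qa (0.94), which macrophages make. Cd79a had no close match, with Lmcd1 (0.77), Trp53 (0.76) and Ighm (0.75) on top. Cd3e was closest to Sirpb1a (0.95), Tnrc6c (0.94) and the dendritic cell lectin Clec9a (0.92), Cd3d to Rgs10 (0.97), Tgfbi (0.95) and Slamf9 (0.95), Cd4 to Cd300c2 (0.94), the MHC class II regulator Ciita (0.93) and Arhgap25 (0.93), Cd8a to Spink8 (0.95), Btbd19 (0.94) and Foxc2 (0.92), and Nkg7 to Prkg1 (0.94), Clmp (0.93) and Gask1b (0.93).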

How the data were processed

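The authors extracted total RNA, prepared libraries with a TruSeq V2 kit, aligned reads with STAR 2.7.3a to mm10 and counted them per gene (R 3.6.1). They tested differential expression with DESeq2 and edgeR 3.28.0. Their table is described as counts, but each deposited column sums to 1000000, so it holds CPM. Whole reads were recovered from the CPM steps (100% of 298586 values above 0 were whole within 0.01 reads). The kit does not mark strand, so reads of a gene and an antisense partner cannot be told apart. A second deposited table holds the authors' own log2 fold changes and adjusted p-values and was not used.

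CPM were scaled by TMM factors and tested as log2(CPM + 0.1), which understates changes of low genes, with limma 3.58.1 (edgeR 4.0.16, R 4.3.3). filterByExpr (at least 10 reads at the median library size and 15 summed) kept 18461 genes. All 12 mice entered a fit with 4 group means and 8 residual degrees of freedom. Benjamini-Hochberg adjustment ran over all genes tested, within each of 8 comparisons, with calls at 0.05 and at the study's 0.01. Library totals were 23.8 to 67.3 times 1000000 reads. Exon lengths came from GENCODE M21 of the same build. Labels call the mice of a group biological replicates. Alternatives were DESeq2 1.42.0 and edgeR's quasi-likelihood test on the recovered reads, RLE or no scaling, pseudocounts of 0.5 and 1, no filter or a mean of 1 CPM, only the groups compared, a replicate block and each library left out. The fit was tested on simulated data.

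The members and gene lists were chosen with earlier results of these data known. All members were named, and of each lymphocyte list up to 4 genes with the smallest p in diabetic against control, of which 1 is not reported here. For each tested member the 3 most similar genes were named. Other names were chosen after their values were seen.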

Additional observations from a re-analysis of the deposited data

How the results depend on the processing

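All values here are log2 changes or counts of calls at a limma adjusted p under 0.05 unless another tool is named, and no cause was tested. Of 1184 alternative values for the 9 members tested, 1066 kept direction and side of the threshold, 43 lost a call, 15 gained one and 60 changed sign. The 6 member calls of diabetic against control over both genotypes held in each of the 12 omissions of 1 library. The values that changed sign, those of Cd79a, Igkc and Jchain and the difference in Cd4 between genotypes, had not passed the test. In WT-D against WT-C, Igkc was -0.36 with edgeR's quasi-likelihood test, -0.40 with DESeq2 and -0.00922 with RLE scaling, and Jchain was 0.15 without scaling. In KO-D against KO-C, Cd79a was 0.000134 with edgeR, 0.00753 with DESeq2 and 0.19 without scaling. Over both genotypes Jchain was -0.13 with edgeR and -0.15 with DESeq2, and Igkc -0.00246 with DESeq2. In KO-D against WT-C without scaling, Cd79a was 0.30, Igkc 0.52 and Jchain 0.11, and Igkc was 0.0392 with a filter at a mean of 1 CPM and 0.0141 with only the groups compared. In KO-D against WT-D, Igkc was 0.11 without scaling. The difference in Cd4 between genotypes was -0.0408 with a pseudocount of 0.5 and -0.0393 with 1.

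Member calls in KO-D against WT-C were 1 with edgeR, 1 with DESeq2, 5 without scaling, 0 without a filter, 0 with the 1 CPM filter, and 0 with only the groups compared. Those in WT-D against WT-C were 4 without scaling, 0 without a filter, 1 with the 1 CPM filter and 1 with only the groups compared. KO-D against KO-C gave 3 without a filter and 0 with the 1 CPM filter, diabetic against control gave 1 with the 1 CPM filter, and KO-D against WT-D gave 1 with DESeq2. The 1 CPM filter leaves Ighm, Igkc and Jchain as the only members tested. Calls over all genes were 1591 in KO-D against WT-D, 13 in KO-C against WT-C, 708 for the difference between genotypes and 592 for knockout against wild type with DESeq2. KO-D against WT-D gave 138 without scaling and 0 with only the groups compared, and WT-D against WT-C gave 2702 with only the groups compared.

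Leaving out WT-C replicate 3 and WT-D replicate 1 together was chosen after seeing the data, as was leaving out either for gene lists and genes that are not members. WT-D against WT-C then gave 0 member calls and 922 calls over all genes, KO-D against WT-C gave 1 member call, and KO-D against WT-D gave 0 calls over all genes. In KO-D against WT-C it gave 0.33 for Jchain, 0.77 for Igkc and 0.18 for Cd79a, and in KO-D against WT-D 0.22 for Jchain and 0.23 for Igkc, with Jchain at 0.11 in WT-D against WT-C.

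Over the 12 omissions of 1 library, member calls ranged over 0 to 3 in WT-D against WT-C, 2 to 5 in KO-D against KO-C, 0 to 2 in KO-D against WT-C, and 0 to 1 each in KO-D against WT-D, in the difference between genotypes and in knockout against wild type. Calls over all genes were 1619 to 6066 in WT-D against WT-C, 3751 to 6244 in KO-D against KO-C, 5514 to 7911 in KO-D against WT-C, 0 to 1348 in KO-D against WT-D, 0 to 659 for the difference between genotypes, 6705 to 9128 over both genotypes and 0 to 423 for knockout against wild type. Igkc ranged over -0.47 to 0.82 in WT-D against WT-C, -0.48 to 0.81 in KO-D against WT-C, -0.37 to 0.23 in KO-D against WT-D and -0.22 to 1.08 for the difference. Jchain ranged over -0.85 to 0.53 in WT-D against WT-C, -0.0402 to 0.80 in KO-D against KO-C, -1.02 to 0.37 in KO-D against WT-C, -0.60 to 0.22 in KO-D against WT-D, -0.25 to 0.44 over both genotypes and -0.18 to 1.21 for the difference. Cd79a ranged over -0.33 to 0.0816 in KO-D against KO-C, -0.36 to 0.21 in KO-D against WT-C and -0.00585 to 0.51 over both genotypes, and Cd4 over -0.29 to 0.46 for the difference.

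Replicate numbers did not pair the mice: over 18 same-numbered pairs the correlation of deviations was -0.35 to 0.29, and 1 of 12 libraries correlated best with its own number. With a replicate block WT-D against WT-C gave 1 member call and KO-D against WT-D 509 calls over all genes. At 0 to 65 reads a library, the depth limits what can be seen of the T cell and B cell members.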
